A study of Arabidopsis thaliana with 15 samples.

Results

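CLE26 (locus AT1G69970) and UPB1 (locus AT2G47270, UPBEAT1) are 2 Arabidopsis genes known for restraining root growth, here followed through roots of 5 genotypes. They were found by the array annotation: a probe set was taken if it was annotated to exactly 1 gene and that gene was CLE26 or UPB1. Each had 1 such probe set, so the account covers 2 of the 13356 genes that have a probe set of their own. Both were chosen with their values on these arrays known. Their levels and differences are therefore described with errors and without a test.

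CLE genes encode short secreted peptides that neighbouring cells perceive through receptor kinases at the cell surface. CLE26 is active in the root vasculature, and the peptide applied to Arabidopsis seedlings blocks protophloem formation and shortens the root. UPB1 is a basic helix-loop-helix transcription factor of the root transition zone, where cells stop dividing and begin to elongate. It represses peroxidase genes and so sets the balance between superoxide in the meristem and hydrogen peroxide in the elongation zone. GRF factors, the subject of the series, are transcription factors of growing tissue whose transcripts are cut by the microRNA miR396.

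RNA came from roots of 2-week-old plants raised on modified Knop's medium, with 3 arrays for each genotype and 15 in all. The wild types were Col-0 and WS. The grf1/grf2/grf3 plants carry mutations in 3 GRF genes together, and their labels name both ecotypes. P35S:rGRF1 plants (labelled Col-0) and P35S:rGRF3 plants (labelled WS) express a GRF1 or GRF3 that miR396 cannot cut, from the broadly active 35S promoter rather than the gene's own. The labels do not say how many transgenic lines were used, or that replicates came from separate cultures, so errors and p-values may reflect technical spread alone. GRF1, GRF2 and GRF3 themselves were not analysed here, so the genotypes could not be checked against them. In whole roots, fewer cells that express a gene and less RNA per cell cannot be told apart.

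The P35S:rGRF3 arrays went against their ecotype label. Of 120 tested probe sets that differed by more than 3 on the log2 scale between WS and Col-0, P35S:rGRF3 lay nearer Col-0 at 112 and nearer WS at 8. P35S:rGRF1 lay nearer Col-0 at 116, and the triple mutant nearer WS at 114. The line labelled P35S:rGRF3 is therefore set beside both wild types throughout. Control probe sets also divided the arrays: the controls added at hybridization averaged 10.72 to 11.20 (log2 signal) on the 6 WS and mutant arrays and 9.68 to 10.33 on the other 9. Comparing the mutant with WS, either transgenic line with Col-0, or the lines with each other stays within 1 set of arrays. A comparison of Col-0 with the mutant or WS, or of WS with P35S:rGRF3, crosses the sets, and there genotype cannot be told apart from array set.

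CLE26 was highest in the roots of the triple mutant. Its 3 mutant arrays read 8.69, 8.16 and 8.69 (log2 signal), a mean of 8.51 ± 0.31 (SD, n = 3). WS roots read 7.22, 7.0 and 6.37, with a mean of 6.86 ± 0.44 (SD, n = 3). Col-0 roots read 7.53, 7.08 and 6.80, with a mean of 7.14 ± 0.37 (SD, n = 3). Each of the 3 mutant arrays was above every array of both wild types. P35S:rGRF1 roots read 6.82, 7.08 and 6.37 (mean 6.76 ± 0.36, SD, n = 3). P35S:rGRF3 roots read 6.91, 6.70 and 7.23 (mean 6.95 ± 0.27, SD, n = 3). Readings of both lines with a resistant GRF overlapped those of both wild types. On the linear scale the mutant arrays spanned signals of 285 to 414 and the other 12 arrays 82.6 to 185.

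The mutant exceeded WS by 1.65 ± 0.26 (SE) on the log2 scale for CLE26, a 3.14-fold higher signal. It exceeded Col-0 by 1.37 ± 0.26 (SE), or 2.59-fold. Among all 13648 tested probe sets, 17.3% were higher in the mutant than in WS with no overlap between arrays, and 33.9% were higher than in Col-0 in that way. All 3 mutant arrays lay above the other 12 at 5.13% of the tested probe sets. The 5 genotypes ranked mutant, Col-0, P35S:rGRF3, WS and P35S:rGRF1 by mean CLE26 level. A gap of 0.63 (log2) separated the lowest mutant array from the highest Col-0 array, while every further pair of neighbours in that order overlapped. P35S:rGRF1 differed from Col-0 by -0.38 ± 0.26 (SE), P35S:rGRF3 from WS by 0.08 ± 0.26 and from Col-0 by -0.19 ± 0.26, all with overlapping arrays.

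CLE26 was a dim probe set, and its readings outside the mutant lay near the lower limit for testing. That limit was a mean log2 signal of 6.84, the 40th percentile of the array. The CLE26 mean over all arrays was 7.24, and 6.93 over the 12 arrays that were not of the mutant, so the probe set would have been tested without the mutant too. On 5 arrays its reading was below 6.84. No detection calls were used, so whether these low readings exceed background is unknown, and the folds given for CLE26 carry that limit. Its residual SD was 0.35 (log2), larger than that of 93.6% of the tested probe sets, whose median was 0.18.

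**Figure D1:**
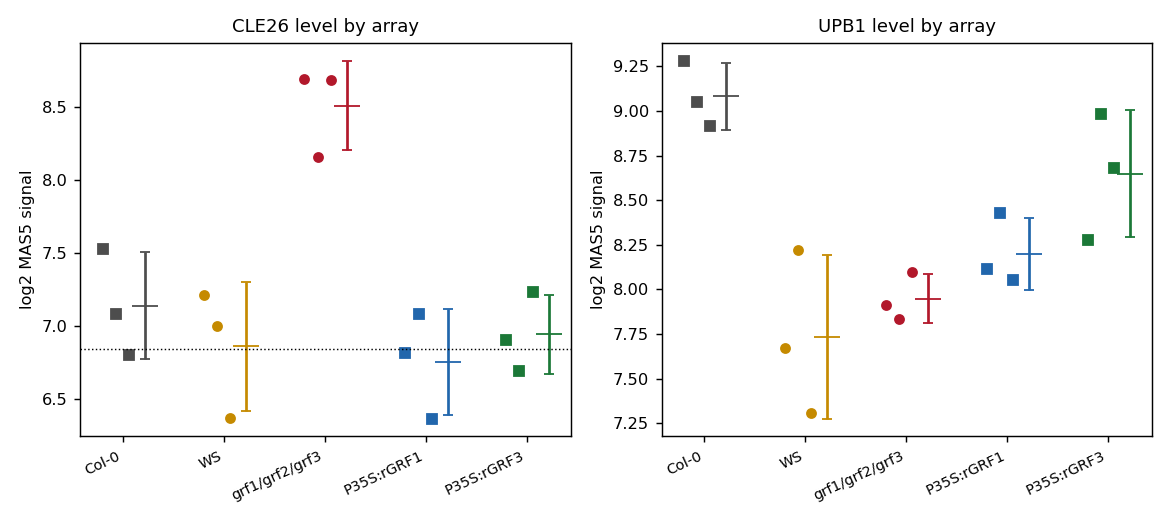
Log2 MAS5 signal of CLE26 and UPB1 on each of the 15 arrays, grouped by genotype. Circles are WS and mutant arrays, squares the other genotypes, bars are mean ± SD (n = 3), and the dotted line is the testing limit of 6.84. The 3 mutant arrays stand above the rest for CLE26, and the Col-0 arrays are above those of WS, the mutant and P35S:rGRF1 for UPB1.

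UPB1 followed a different order, with its highest mean in Col-0 and its lowest in WS. Col-0 roots read 9.28, 9.05 and 8.91 (log2 signal), a mean of 9.08 ± 0.19 (SD, n = 3). WS roots read 7.67, 8.22 and 7.31, with a mean of 7.73 ± 0.46 (SD, n = 3). The wild types did not overlap, and WS was lower than Col-0 by a log2 difference of -1.35 ± 0.21 (SE), or 2.55-fold. Mutant roots read 7.91, 7.83 and 8.10, with a mean of 7.95 ± 0.14 (SD, n = 3). P35S:rGRF1 roots read 8.11, 8.43 and 8.05 (mean 8.20 ± 0.20, SD, n = 3). P35S:rGRF3 roots read 8.28, 8.99 and 8.68 (mean 8.65 ± 0.36, SD, n = 3). The mutant arrays lay inside the range of the WS arrays, the P35S:rGRF1 arrays below all Col-0 arrays, and the P35S:rGRF3 arrays reached into the range of Col-0.

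The UPB1 differences of the mutant and of P35S:rGRF3 depended on which wild type was taken as the control. The mutant differed from WS by 0.21 ± 0.21 (SE, log2), with overlapping arrays (0.00197 without WS replicate 3 and 0.46 without WS replicate 2), and from Col-0 by -1.13 ± 0.21, a 2.2-fold lower signal with no overlap. P35S:rGRF3 differed from WS by 0.91 ± 0.21, a 1.89-fold higher signal with no overlap, and from Col-0 by -0.43 ± 0.21, with overlap. P35S:rGRF1 differed from Col-0, its labelled ecotype, by -0.88 ± 0.21, a 1.85-fold lower signal with no overlap. Over the tested probe sets, a lower level with no overlap was found at 14.9% for P35S:rGRF1 against Col-0, at 19.8% for the mutant against Col-0 and at 22.7% for WS against Col-0. A higher level with no overlap was found at 21.1% for P35S:rGRF3 against WS. The 2 lines differed from each other by -0.45 ± 0.21 (P35S:rGRF1 minus P35S:rGRF3), and their arrays overlapped.

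By mean UPB1 level the genotypes ranked Col-0, P35S:rGRF3, P35S:rGRF1, mutant and WS, and every pair of neighbours overlapped. Col-0 was above all arrays of WS, the mutant and P35S:rGRF1, an arrangement found at 4.59% of the tested probe sets. UPB1 read 7.31 to 8.22 on the 6 WS and mutant arrays and 8.05 to 9.28 on the other 9, ranges that overlap where those of the hybridization controls do not. The part of the array sets in the UPB1 levels was not tested. The difference between P35S:rGRF1 and Col-0 lies within 1 of these sets. CLE26 spanned 6.37 to 8.69 on the WS and mutant arrays and 6.37 to 7.53 on the others. Its 1.65 between mutant and WS also lies within 1 set. Control readings still differed inside the sets, those of the hybridization controls included. These controls had a mean of 10.77 (log2 signal) in the mutant against 11.02 in WS, with no overlap of arrays. Their mean was 10.14 in P35S:rGRF1 against 9.85 in Col-0, again with no overlap. The 25S rRNA probe set read 9.77 to 10.81 (log2 signal) in the mutant against 11.42 to 11.69 in WS. It read 12.84 to 12.91 in P35S:rGRF1 against 11.83 to 12.51 in Col-0, with no overlap in either comparison. For the poly-A controls, the log2 signal of 3' less that of 5' probe sets was 1.80 to 1.81 in the mutant and 1.60 to 2.24 in WS, and 1.25 to 1.65 in P35S:rGRF1 and 1.16 to 1.44 in Col-0, overlapping in both. The mean level of the poly-A controls was 9.30 to 9.73 in P35S:rGRF1 against 8.01 to 8.89 in Col-0, with no overlap. In the mutant that level was 7.70 to 8.18 against 8.07 to 8.34 in WS, with overlap. Whether any of these control signals has a part in the CLE26 or UPB1 differences was not tested.

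In 4 of the 5 genotypes the array with the lowest CLE26 reading was also the one with the lowest UPB1 reading. These were replicate 3 in Col-0, WS and P35S:rGRF1, and replicate 2 in the mutant. Such a match in at least 4 genotypes occurred at 4.51% of the tested probe sets set against CLE26 and at 5.19% set against UPB1. UPB1 had a residual SD of 0.29 (log2), larger than that of 87.0% of the tested probe sets, and none of its arrays fell below the testing limit.

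The genes whose profiles were most like those of CLE26 and UPB1 were found by the root mean square difference between centred log2 profiles over the 15 arrays. This measure is a description, and the arrays behind it share the genotypes. Genes picked as nearest tend to share the highest and lowest genotypes of the member through the picking alone. For CLE26, whose own profile had a root mean square of 0.71, the nearest was AT1G10690 at 0.247. It was followed by AT5G02580 at 0.285, AT5G40960 at 0.348, AT4G14060 at 0.356 and AT5G17700 at 0.359. All 5 had their highest mean in the mutant. AT5G02580, for one, averaged 9.79 in the mutant against 8.22 for WS and 8.83 for Col-0, and AT1G10690 averaged 8.46, 7.18 and 7.42 in the same order.

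For UPB1, whose own profile had a root mean square of 0.54, the nearest was SDRB (AT3G12800) at 0.250, a short-chain dehydrogenase-reductase. AT1G70000 followed at 0.254, EXPA18, a cell-wall expansin known from root hairs, at 0.277, AT3G48880 at 0.278 and AT2G04305 at 0.279. All 5 had their highest mean in Col-0 and their lowest in WS. SDRB averaged 10.55 in Col-0, 10.29 in P35S:rGRF3, 10.05 in P35S:rGRF1, 9.79 in the mutant and 9.38 in WS, the same order of genotypes as UPB1. EXPA18 averaged 9.91 in both Col-0 and P35S:rGRF3, 9.38 in P35S:rGRF1, 9.30 in the mutant and 8.90 in WS.

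**Figure D2:**
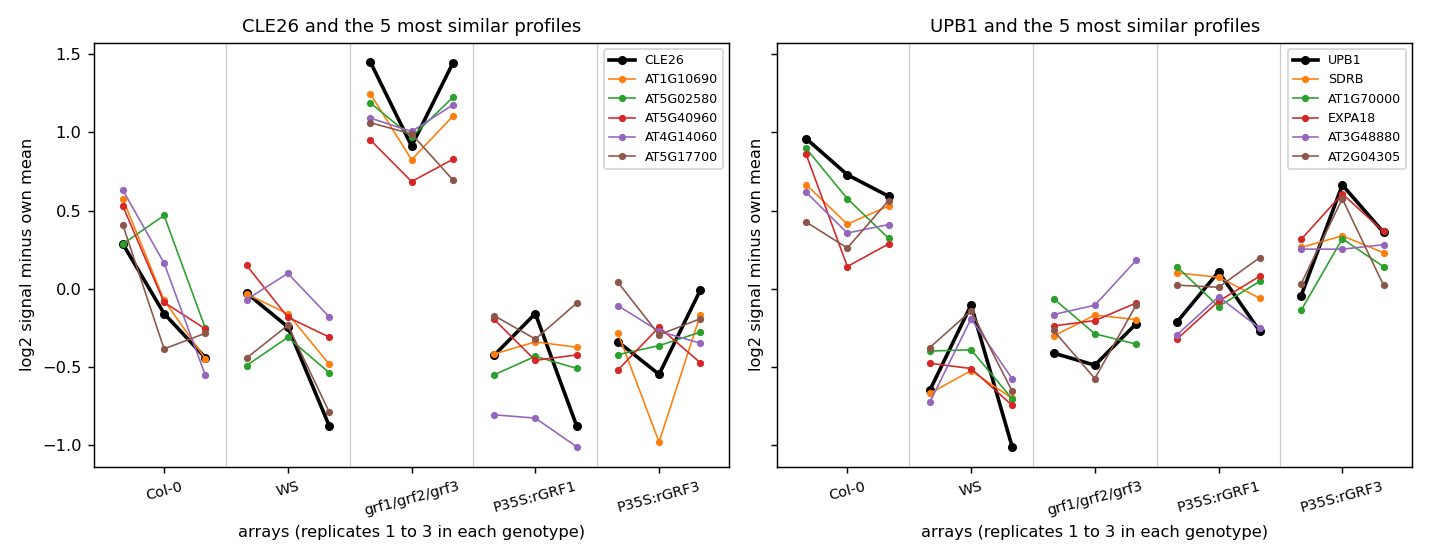
Log2 signal minus the gene's own mean over 15 arrays, for CLE26 (left) and UPB1 (right) in black and for the 5 genes with the nearest profiles in colour. Arrays are placed by genotype, and the lines only connect a gene's points, since replicates have no order. The CLE26 group is highest in the mutant, while the UPB1 group is high in Col-0 and low in WS.

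The array named 6 further CLE genes, of which CLE41 and CLE44 were bright enough to test. Both encode the TDIF peptide, which is made in phloem and acts on the cambium through the receptor PXY. CLE21, CLE27, CLE40 and CLV3 had means under the limit in all 5 genotypes. CLE27, the brightest of these in the mutant, averaged 5.99 there, 5.84 in WS, 5.41 in P35S:rGRF3, 4.20 in Col-0 and 3.99 in P35S:rGRF1 (log2 signal). None of these 4 dim relatives reached the limit in the mutant, where CLE26 read highest.

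CLE41 read 9.71, 9.20 and 8.62 in Col-0 (9.18 ± 0.55, SD, n = 3) and 7.39, 7.61 and 7.59 in WS (7.53 ± 0.12). Mutant roots read 8.51, 8.24 and 8.17 (8.31 ± 0.18), between the wild types and overlapping neither. P35S:rGRF1 averaged 9.33 ± 0.07 and P35S:rGRF3 9.25 ± 0.09, both inside the Col-0 range. Against WS the mutant was higher by 0.78 ± 0.19 (SE, limma adjusted p = 0.0137), and against Col-0 it differed by -0.87 (adjusted p = 0.00175). The call against WS was lost without WS replicate 1 (0.71, adjusted p = 0.0576) or mutant replicate 1 (0.68, adjusted p = 0.0603). WS differed from Col-0 by -1.65 (adjusted p = 4.06e-06). P35S:rGRF3 exceeded WS by 1.72 (adjusted p = 2.57e-06) and differed from Col-0 by 0.07 (adjusted p = 0.862).

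CLE44 had its highest level in P35S:rGRF3, a genotype in which CLE26 stayed within the wild-type range. It read 10.03, 9.46 and 9.58 there (9.69 ± 0.30, SD, n = 3). Col-0 read 8.17, 8.27 and 7.72 (8.05 ± 0.29), WS 6.28, 6.73 and 5.99 (6.34 ± 0.37), and P35S:rGRF1 8.07, 8.16 and 8.43 (8.22 ± 0.19). All P35S:rGRF3 arrays were above all others for CLE44, an arrangement whose share of all tested probe sets was not counted. P35S:rGRF3 exceeded Col-0 by 1.64 ± 0.22 (SE, limma adjusted p = 1.15e-04) and WS by 3.35 ± 0.22 (adjusted p = 6.34e-09), and P35S:rGRF1 was below it by a log2 difference of -1.47 (adjusted p = 2.47e-04). Mutant roots read 7.26, 7.27 and 6.71 (7.08 ± 0.32) and were higher than WS by 0.74 ± 0.22 (adjusted p = 0.0328), with 1 array inside the WS range. That call was lost with no filter (adjusted p = 0.0546) and without WS replicate 1 or 3 or mutant replicate 1 or 2, with differences of 0.57 to 0.72. Against Col-0 the mutant differed by -0.97 (adjusted p = 0.00185), with WS at -1.72 from Col-0 (adjusted p = 8.97e-06).

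Across the comparisons, then, both tested relatives were higher in the mutant than in WS and lower than in Col-0, while CLE26 was above both wild types. Of all tested probe sets, 7.38% were called higher and 6.54% lower in the mutant against WS, and 28.1% higher and 17.0% lower against Col-0. For P35S:rGRF3, 19.4% were called higher against WS and 5.30% against Col-0. P35S:rGRF1 and Col-0 had 0 of 2 called by limma, also at an unadjusted p under 0.05, with 10.5% of all probe sets called in either direction.

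**Figure D3:**
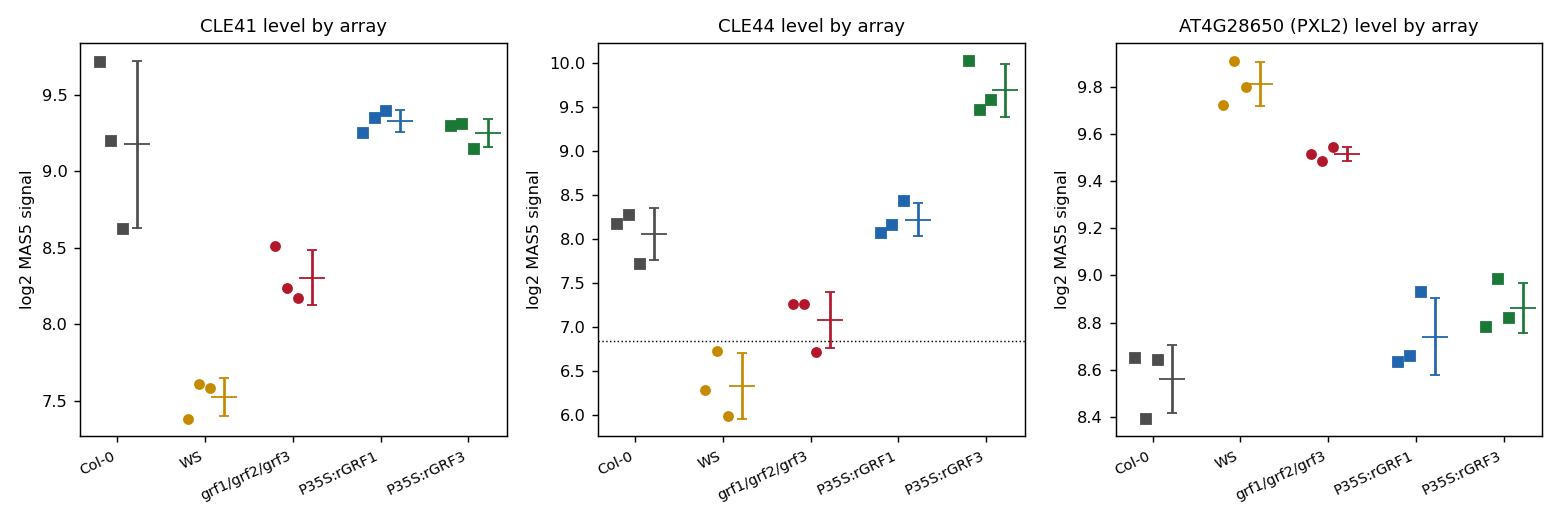
Log2 MAS5 signal of CLE41, CLE44 and AT4G28650 (PXL2) on each array by genotype. Circles are WS and mutant arrays, squares the other genotypes, bars are mean ± SD (n = 3), and the dotted line is the testing limit of 6.84. CLE44 stands highest on the 3 P35S:rGRF3 arrays, and AT4G28650 is higher on the 6 WS and mutant arrays than on the other 9. The latter division is also that of the array sets, and the shares of all tested probe sets with these arrangements were not counted.

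Of the receptors and partners through which CLE peptides act, 4 were named and 2 were tested, both kinases related to PXY. AT4G28650, listed as PXL2, averaged 9.81 ± 0.09 in WS and 9.51 ± 0.03 in the mutant (SD, n = 3). Col-0 averaged 8.56 ± 0.15, P35S:rGRF1 8.74 ± 0.16 and P35S:rGRF3 8.86 ± 0.11. It was thus higher on the 6 WS and mutant arrays than on the other 9, the same division as that of the array sets. The share of all tested probe sets with that arrangement was not counted. Whether array set has a part in it was not tested. WS exceeded Col-0 by 1.25 (limma adjusted p = 3.39e-07), and P35S:rGRF3 differed from WS by -0.95 (adjusted p = 5.57e-06) and from Col-0 by 0.30 (adjusted p = 0.108). The mutant differed from WS by -0.30 (adjusted p = 0.104). AT1G08590, listed as PXL1, exceeded Col-0 in WS by 0.62 (adjusted p = 0.00888), and its difference of -0.48 between mutant and WS did not pass (adjusted p = 0.0907). WS and Col-0 differed at 51.7% of all tested probe sets.

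In the tissues in which CLE26 acts, the protophloem gene OPS, whose protein sits at the membrane of differentiating sieve elements, was the only one of its list named and tested. OPS averaged 7.43 ± 0.19 in the mutant, 7.10 ± 0.01 in WS, 6.76 ± 0.02 in P35S:rGRF1, 6.69 ± 0.08 in P35S:rGRF3 and 6.31 ± 0.45 in Col-0 (log2 signal, SD, n = 3). The mutant exceeded Col-0 by 1.12 ± 0.20 (SE, limma adjusted p = 2.33e-04) and differed from WS by 0.34 (adjusted p = 0.287). WS too exceeded Col-0 in OPS, by 0.78 (adjusted p = 0.00325). Both comparisons with Col-0 cross array sets. Of all tested probe sets, 28.1% were called higher in the mutant than in Col-0 and 31.4% in WS than in Col-0. PHV, an HD-ZIP III factor of vascular patterning, averaged 9.81 in the mutant, 9.37 in WS, 8.86 in P35S:rGRF1, 8.83 in Col-0 and 8.27 in P35S:rGRF3. Like CLE26 it had its highest mean in the mutant. It exceeded Col-0 there by 0.98 (adjusted p = 4.31e-05), while its 0.44 over WS stood at the threshold (adjusted p = 0.0499) and was lost under 10 alternatives. WS exceeded Col-0 in PHV by 0.54 (adjusted p = 0.00484). P35S:rGRF3 was lower in PHV than WS (-1.10, adjusted p = 1.05e-05). Its difference of -0.56 from Col-0 (adjusted p = 0.0175) was lost with only those 2 groups, without Col-0 replicate 2 and without P35S:rGRF3 replicate 1 or 3 (adjusted p of 0.0515 to 0.0580). LHW, a factor of early vascular cell divisions and the other tested gene of the xylem list, differed by 0.05 between mutant and WS (adjusted p = 0.924) and by 0.24 between P35S:rGRF3 and Col-0 (adjusted p = 0.598). It was higher in the mutant than in Col-0 by 0.82 (adjusted p = 0.0141), a call lost without Col-0 replicate 2 (0.68) or mutant replicate 3 (0.66). LHW was also higher in WS than in Col-0, by 0.77 (adjusted p = 0.0176). That call was lost without Col-0 replicate 2 (0.63) or WS replicate 1 (0.49).

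For UPB1 the genes to set beside it are the class III peroxidases, secreted enzymes that use hydrogen peroxide in the cell wall. The family was taken by locus tag from general knowledge of the Arabidopsis genome, since the files give these loci no description. Of 55 named on the array 39 were tested. The 3 peroxidases known in Arabidopsis roots as direct targets repressed by UPB1 are AT5G17820, AT4G11290 and AT4G16270, and the last lay under the testing limit, with means of 5.27 to 6.24. The 2 tested targets did not follow each other across the genotypes.

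AT5G17820 was highest in P35S:rGRF3, where it read 12.33, 12.53 and 12.59 (12.48 ± 0.13, SD, n = 3). Col-0 read 11.97, 11.74 and 11.88 (11.87 ± 0.11), and WS averaged 11.43 ± 0.05. WS differed from Col-0 by -0.44 (limma adjusted p = 0.00524), the same direction as UPB1. That comparison crosses array sets, and 20.3% of all probe sets were called lower in it. P35S:rGRF3 exceeded Col-0 by 0.62 ± 0.12 (SE, limma adjusted p = 0.00244) and WS by 1.05 (adjusted p = 2.06e-06). It differed from P35S:rGRF1 too, at -0.86 for P35S:rGRF1 minus P35S:rGRF3 (adjusted p = 9.88e-05). In that genotype the mean of UPB1 was between those of the wild types. P35S:rGRF1, where UPB1 was lower than in Col-0, differed from Col-0 in this target by -0.25 (adjusted p = 0.189). The mutant's difference of -0.32 from Col-0 (adjusted p = 0.0339) was lost in 5 alternatives, among them without Col-0 replicate 1 or 3 or mutant replicate 1.

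AT4G11290, unlike AT5G17820, ran in the opposite order to UPB1 for the wild types. It averaged 10.66 ± 0.09 in WS, 10.49 ± 0.10 in the mutant, 10.18 ± 0.34 in P35S:rGRF3, 9.80 ± 0.32 in Col-0 and 9.46 ± 0.09 in P35S:rGRF1. WS exceeded Col-0 by 0.85 (limma adjusted p = 4.28e-04) and the mutant exceeded Col-0 by 0.68 (adjusted p = 0.00291), both across array sets. P35S:rGRF1 differed from Col-0 by -0.35 (adjusted p = 0.186), and it was below P35S:rGRF3 by a log2 difference of -0.72 (adjusted p = 0.00579). The mutant differed from WS by -0.17 (adjusted p = 0.555). P35S:rGRF3 differed from WS by -0.48 (adjusted p = 0.0222), a call lost without WS replicate 2 or P35S:rGRF3 replicate 1 or 3 (-0.32 to -0.45).

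Over the whole peroxidase list, the comparison within 1 array set in which UPB1 did not overlap, P35S:rGRF1 against Col-0, had 1 gene called higher and 3 lower of 39, with a median log2 difference of -0.07 against 0.03 for all tested probe sets. Of all probe sets 5.30% were called higher and 5.17% lower there. AT5G15180 had the most negative difference, -1.06 ± 0.15 (SE, limma adjusted p = 7.83e-04). The list count was 2 without Col-0 replicate 1 or P35S:rGRF1 replicate 2, and 1 without P35S:rGRF1 replicate 1. In P35S:rGRF3 against Col-0, 4 rose and 6 fell, with a median of 0.11 against -0.02 for all, where 5.30% of probe sets were called higher and 6.61% lower. Among the tested genes, AT3G03670 rose by 2.80 (adjusted p = 0.00476) and AT4G36430 by 1.37 (adjusted p = 8.56e-04), while AT5G64120, listed as PRX71, had a difference of -2.01 (adjusted p = 1.43e-06). PRX52 (AT5G05340) was left out by the filter, which takes the mean over all arrays. It averaged 10.11 ± 0.24 in P35S:rGRF3 against 4.08 ± 0.87 in Col-0 (SD, n = 3).

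In the mutant against WS, where UPB1 differed by 0.21, 3 peroxidases were called higher and 6 lower, beside 7.38% and 6.54% of all probe sets, and the list median was -0.0023. The largest of the called differences were those of AT1G49570 (-1.99, limma adjusted p = 0.0156) and AT3G03670 (-1.95, adjusted p = 0.0352), and AT5G64120 rose by 1.09 (adjusted p = 5.68e-04). The call of AT1G49570 was lost without WS replicate 2 or 3 or mutant replicate 2. That of AT3G03670 was lost without any 1 of the WS arrays, without mutant replicate 2, with an offset of 16 and with no filter. The count of 9 was 4 without WS replicate 3. The comparisons across array sets held larger counts. In the mutant against Col-0, 5 were higher and 18 lower, with a median of -0.32 against 0.10 for all probe sets, of which 28.1% were higher and 17.0% lower. In WS against Col-0 the counts were 6 and 16, with a median of -0.22 against 0.11, where 31.4% of all probe sets were higher and 20.3% lower. In P35S:rGRF3 against WS, 17 were higher and 6 lower, with a median of 0.27 against -0.13, where 19.4% were higher and 33.0% lower. UPB1 differed by -1.13, -1.35 and 0.91 in those 3 comparisons. These comparisons share the Col-0 or the WS arrays, and whether array set or ecotype has a part in these counts was not tested.

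Between the lines, P35S:rGRF1 minus P35S:rGRF3, 8 peroxidases were called higher and 10 lower, with a median of -0.23 against 0.06 for all probe sets, of which 12.6% were called higher and 8.63% lower. UPB1 had a difference of -0.45 in it. Some peroxidase means were under the testing limit: AT3G03670, for one, averaged 4.0 in the mutant. Untested genes could be bright in some genotypes: AT5G19880 averaged 7.94 in Col-0 and 0.38 in WS. The 39 tested genes therefore do not stand for the whole family.

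**Figure D4:**
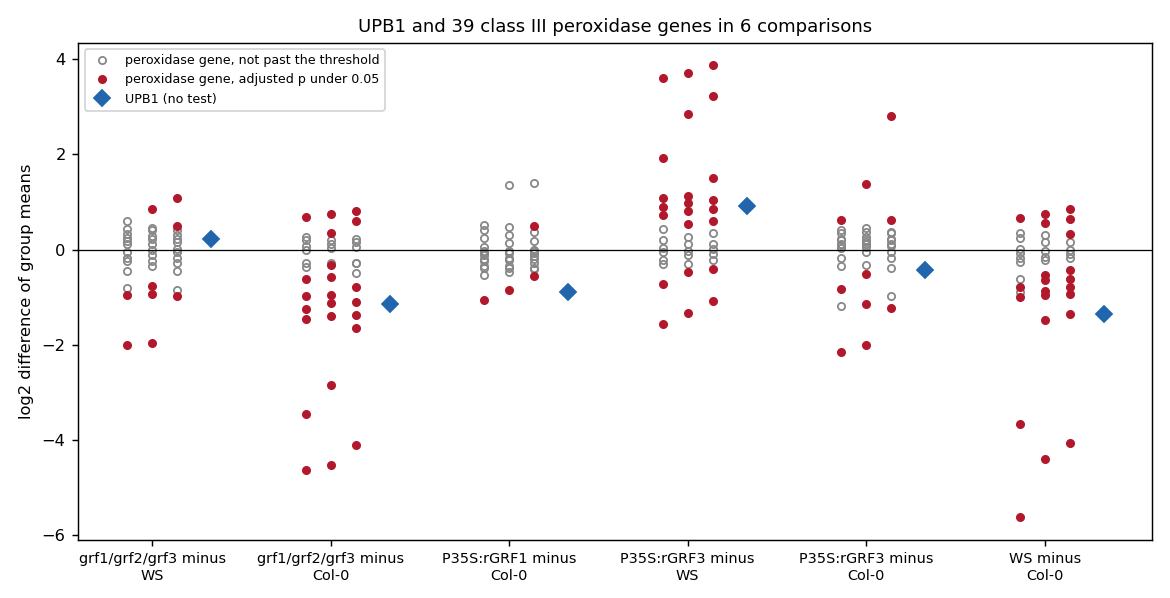
Log2 difference of group means for UPB1 (diamonds, no test) and for each of 39 class III peroxidase genes in 6 comparisons. Filled circles are genes at an adjusted p under 0.05 by limma and open circles those not past it, spread sideways for legibility. In P35S:rGRF1 minus Col-0, with UPB1 at -0.88, 4 peroxidase genes are filled, where 10.5% of all tested probe sets were called. In P35S:rGRF3 minus WS, which crosses array sets, 23 are filled, where 19.4% of all were called higher and 33.0% lower.

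Of 7 tested genes for other root signalling peptides, 2 rose and 1 fell in P35S:rGRF3 against Col-0, where 5.30% of all probe sets were called higher and 6.61% lower. All 7 tested genes of this list, called or not, belong to the RALF family, whose peptides alkalinize the cell wall and restrain growth. RALFL33 was higher by 0.47 (limma adjusted p = 0.00661) and RALFL22 by 0.46 (adjusted p = 0.00687), while RALFL32 differed by -0.40 (adjusted p = 0.0304). All 3 calls were lost with only those 2 groups, and that of RALFL32 also with no variance trend and without Col-0 replicate 2 or 3 or P35S:rGRF3 replicate 2 or 3. In P35S:rGRF1 against P35S:rGRF3, 2 of the 7 were lower, RALFL22 by a log2 difference of -0.75 (adjusted p = 9.35e-05) and RALFL33 of -0.69 (adjusted p = 2.57e-04), beside 8.63% of all probe sets. RALFL33 exceeded WS in the mutant by 0.41 (adjusted p = 0.0137), a call lost without WS replicate 2 (0.39) or mutant replicate 3 (0.32). In P35S:rGRF1 against Col-0, 0 of the 7 tested peptides of this list passed limma's threshold, with 3 lower and 0 higher at an unadjusted p under 0.05. Of all probe sets 5.30% were called higher and 5.17% lower there. Of 3 tested cell division genes, PRL, a subunit of the replicative helicase, was higher in P35S:rGRF1 than in Col-0 by 0.53 (adjusted p = 0.0186), and was not called without Col-0 replicate 2 or P35S:rGRF1 replicate 1 or 3. In the mutant against WS 0 of these 3 passed limma's threshold, with 1 lower at an unadjusted p under 0.05. Among all probe sets 7.38% were called higher and 6.54% lower in that comparison. JKD, a ground-tissue factor of the root, was higher in WS than in Col-0 by 0.68 (adjusted p = 0.0136), a call lost without WS replicate 1 (0.57).

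Markers of tissue were read for the same arrays. EXPA7, a root-hair expansin, stood at 9.57 to 10 for Col-0, 8.83 to 9.19 for WS, 9.23 to 9.57 for the mutant, 9.23 to 9.74 for P35S:rGRF1 and 9.74 to 10.12 for P35S:rGRF3. Like UPB1 it was lower in WS than in Col-0 with no overlap. Of 6 shoot markers named none was at 0, and 5 were tested. In the mutant against WS, limma called 3 of the 5 lower and 0 higher, beside 6.54% and 7.38% of all probe sets. These were PSBW (-1.10), LHCB4.1 (-0.88) and PSBY (-0.67). The calls of PSBW and LHCB4.1 were lost without WS replicate 1 or 3. In P35S:rGRF1 against Col-0, 0 of the 5 were called, with 2 higher at an unadjusted p under 0.05. The summed signal of the 6 markers (log2) ran from 11.07 to 11.85 for Col-0, 11.80 to 11.96 for WS, 10.95 to 11.67 for the mutant, 11.87 to 11.92 for P35S:rGRF1 and 11.06 to 11.54 for P35S:rGRF3. The mutant sums thus lay below those of WS, where CLE26 was higher in the mutant, and the P35S:rGRF1 sums above those of Col-0, where UPB1 was lower. Whether shoot RNA has a part in either difference was not tested.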

How the data were processed

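Root RNA was measured on 15 arrays. The deposited values are linear signal intensity that the authors computed with MAS5, per the submitters' processing notes (version not given in the sources used here). The log2 of each value was used without an offset. Control probe sets (64 of 22810) were left out, and 13648 probe sets with a mean at or above the 40th percentile were tested. Of the 22746 probe sets that are not controls, 13513 have 1 gene in the annotation, 503 several and 8730 none. Names were updated from a RefSeq gene table (TAIR10.1), which matched 13436.

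A mean per genotype was estimated by limma (version 3.58.1, R 4.3.3) over all arrays together, with eBayes and a variance trend. Tests are two-sided, with Benjamini-Hochberg adjustment over all tested probe sets and a threshold of 0.05. The fit was tested on simulated data. The members and all gene lists were chosen with earlier results of these data known. Named genes are both members, all measured CLE genes, the measured UPB1 targets, up to 4 called genes with the largest difference per list and comparison (a selection of these is printed), and the 5 nearest profiles of each member. Where several probe sets name a gene, the brightest stands for it. Lists of superoxide and hydrogen peroxide enzymes, of atypical bHLH factors and of GRF factors had no gene named and were not analysed here. Same-numbered replicates were not paired. Alternatives were an offset of 16, no filter or the 60th percentile, quantile normalization, no trend, only the 2 groups compared, a replicate block and each array left out. Leaving out the P35S:rGRF3 arrays was added after seeing the data.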

Additional observations from a re-analysis of the deposited data

How the results depend on the processing

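None of the 14 CLE26 and UPB1 differences moved by more than the spread between replicates under any alternative run. For most alternatives this could not have come out otherwise. Leaving out 1 array of 3 shifts a group mean by less than the SD of that group. The filter, trend, block and subset settings leave a difference of group means unchanged. Only for the offset and quantile normalization does the result say something about stability. Leaving out 1 array at a time, CLE26 in the mutant exceeded WS by 1.4 to 1.83 (log2) and Col-0 by 1.2 to 1.57. UPB1 in P35S:rGRF1 stayed between -1.0 and -0.78 relative to Col-0, and P35S:rGRF3 between 0.70 and 1.16 relative to WS. Smaller differences were not stable: UPB1 ran from 0.00197 to 0.46 for mutant minus WS and from -0.60 to -0.25 for P35S:rGRF3 minus Col-0. CLE26 changed sign for P35S:rGRF3 minus WS (-0.16 to 0.26) and minus Col-0 (-0.36 to 0.00175), and for P35S:rGRF1 minus P35S:rGRF3 (-0.35 to 0.00570). Among the peroxidases, the count called in the mutant against WS was 9 and ran from 4 to 8 with 1 array left out. In P35S:rGRF1 against Col-0 it was 4 and ran from 1 to 6. For the genes of the other lists the count was 7 in the mutant against WS (3 to 5 with 1 array left out), 1 in P35S:rGRF1 against Col-0 (0 to 2) and 5 in P35S:rGRF3 against Col-0 (3 to 8). With only the 2 groups compared the last pair of counts became 2 and 1, from a fit with fewer arrays. The causes of the other shifts were not tested.

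Over all probe sets, calls in the mutant against WS were 1900 and dropped to 1159 when WS replicate 3 was left out, to 1257 for WS replicate 1 and to 1191 for mutant replicate 2. In P35S:rGRF1 against Col-0 they were 1429, with 858 from those groups alone and 656 when Col-0 replicate 1 was left out. Leaving out P35S:rGRF1 replicate 1 gave 588, replicate 2 gave 771 and replicate 3 gave 708. In P35S:rGRF3 against Col-0 they were 1626, with 681 from those groups alone, 965 without Col-0 replicate 2 and 1071 without P35S:rGRF3 replicate 1. Between the lines they were 2891, and 1666 without P35S:rGRF1 replicate 1.

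Same-numbered arrays of different genotypes correlated in their deviations at -0.175 to 0.251, with 6 of 30 pairs over 0.1, and 6 of 15 arrays correlated best with their own number, so numbers were not taken as pairs. With a replicate block the peroxidase counts were 9 in the mutant against WS, 23 in the mutant against Col-0, 5 in P35S:rGRF1 against Col-0 and 11 in P35S:rGRF3 against Col-0. The other lists gave 6, 12, 1 and 5. Of 100 differences of named genes, 70 kept their call under all alternatives run and none reversed. The small number of arrays and dim signals near the limit restrict what CLE26 readings outside the mutant can show.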
